A study of Mus musculus with 11 samples.

Results

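The T cell receptor β (Tcrb) locus was followed segment by segment in RNA of sorted mouse thymocytes. Its members were all genes with a symbol beginning Trbv, Trbd, Trbj or Trbc and a TR_ biotype in the GENCODE M21 annotation of GRCm38, which are 53 of the 35975 genes with matched transcripts. They are 35 Trbv genes, of which 13 are annotated as pseudogenes, 2 Trbd genes, 14 Trbj genes, of which 1 (Trbj2-6) is annotated as a pseudogene, and 2 Trbc genes. DN2 and DN3 thymocytes, consecutive stages of T cell development that lack CD4 and CD8, gave 11 libraries. There were 3 DN2 WT, 2 DN2 Arpp21-/-, 3 DN3 WT and 3 DN3 Arpp21-/- libraries, all labelled as C57BL/6J thymocytes. Arpp21 encodes an RNA-binding protein of thymocytes, and the Arpp21-/- mice carried a germline CRISPR/Cas9 deletion, made in C57BL/6N embryos, of an exon whose loss shifts the reading frame of the long isoform. They lack the full-length protein in every cell but still make a short isoform. According to the study's methods the mice were of both sexes and of different ages, matched between genotypes. How many mice gave each library was not given in the sources used here, so p-values measure the spread between these libraries.

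The Tcrb locus encodes the β chain of the T cell receptor in separate V, D, J and C pieces. The RAG1 and RAG2 recombinase joins a D to a J segment first and a V segment to the joined DJ next, and the rearranged exon is then spliced to a constant gene. DN3 is the stage at which thymocytes complete V to DJ joining and test the new β chain with the pre-T cell receptor α chain, a checkpoint called β selection. Segments that have not been rearranged can also be transcribed as germline RNA, and the deposited values do not separate germline from rearranged transcripts.

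On chromosome 6 of GRCm38 the segments span 667.2 kb, from Trbv1 (chr6:40891229-40891885) to Trbv31 (chr6:41557691-41558452). The upstream Trbv genes end with Trbv30 (chr6:41281376-41281990), 251.8 kb from Trbd1. A first cluster of Trbd1, 7 Trbj1 segments and Trbc1 (chr6:41538218-41539881) is followed by a second of Trbd2, 7 Trbj2 segments and Trbc2 (chr6:41546730-41548352). Trbv31 lies beyond Trbc2 on the minus strand. Between Trbv1 and Trbv31 the annotation holds 28 other genes, 23 of them with Prss, Try or Gm symbols.

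The D and J segments that the results turn on are printed 5′ to 3′ from the GENCODE M21 transcripts of GRCm38, since their length decides what can be counted. Capitals mark TTTGG or TTCGG where NNNNGG follows, the start of the Phe-Gly-X-Gly motif of J segments, read on the coding strand.
Trbd1: gggacagggggc
Trbd2: gggactgggggggc
Trbj1-1: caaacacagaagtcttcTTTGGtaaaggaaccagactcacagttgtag
Trbj1-2: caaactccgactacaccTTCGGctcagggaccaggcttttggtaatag
Trbj2-1: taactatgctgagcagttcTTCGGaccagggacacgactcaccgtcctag
Trbj2-5: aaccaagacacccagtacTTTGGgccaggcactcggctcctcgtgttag
Trbj2-6: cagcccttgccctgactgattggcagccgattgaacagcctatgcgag
Trbj2-7: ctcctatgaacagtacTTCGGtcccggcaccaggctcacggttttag
These lie on the plus strand at chr6:41533201-41533212, chr6:41542163-41542176, chr6:41533864-41533911, chr6:41534001-41534048, chr6:41542754-41542803, chr6:41543453-41543501, chr6:41543598-41543645 and chr6:41543810-41543856, in the order printed. The motif was found in 11 of the 14 Trbj segments and not in Trbj1-6, Trbj1-7 or Trbj2-6. The D segments of 12 and 14 bases are shorter than the 31-base words (31-mers) by which kallisto assigns reads, and both stood at 0 counts in every library, so their use was not measured. The Trbj segments of 46 to 54 bases hold 16 to 24 such words each and share none with another gene.

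The 3′ ends of the related Trbv12 and Trbv13 genes, where V meets D, are printed because these relatives differed widely in level. Capitals mark TGTGC, which begins with the TGT codon of the conserved cysteine, in the last 30 bases of each transcript.
Trbv12-1: tctgctatgtacttcTGTGCcagctctctc
Trbv12-2: tctgccgtgtacttcTGTGCcagctctctc
Trbv13-1: catctttgtacttcTGTGCcagcagtgatg
Trbv13-2: catcagtgtacttcTGTGCcagcggtgatg
Trbv13-3: cagctgtatatttcTGTGCcagcagtgatg
The genes lie on the plus strand at chr6:41113550-41114067, chr6:41118851-41119364, chr6:41116007-41116468, chr6:41121396-41121832 and chr6:41130147-41130585. TGTGC lay within the last 40 bases of 19 of the 22 functional Trbv transcripts (not of Trbv1, Trbv20 or Trbv30) and of 7 of the 13 pseudogenes. Trbv12-1 and Trbv12-2 were 88.3% identical, and 10.4% of the 31-mers of Trbv12-2 also occur in relatives. Trbv13-2 was 88.7% identical to Trbv13-1 and 90.6% to Trbv13-3, and shared 11% of its 31-mers with them, so a part of these counts may be divided between relatives. Trbc1 and Trbc2 were 87.3% identical, and 44.8% and 48.5% of their 31-mers are common to both. Of the 31-mers of Trbv4 and Trbv5, 73.6% and 78.7% also occur in the annotated gene 5830405F06Rik, which makes the values of both uncertain.

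The libraries held 14531762 to 63109504 estimated counts, of which 0.204% to 0.381% lay on the Tcrb segments. DN2 Arpp21-/- replicate 2, the deepest library, and DN3 Arpp21-/- replicate 3 stood apart with TMM normalization factors of 0.599 and 0.861, while the others lay between 1.03 and 1.11. CPM below are estimated counts scaled to library size after TMM normalization. Summed Arpp21 was 183, 125 and 136 CPM in the DN2 WT, 86.9 and 28.5 in the DN2 Arpp21-/-, 386, 336 and 312 in the DN3 WT and 335, 221 and 142 CPM in the DN3 Arpp21-/- libraries, which overlapped at DN3, though summing all transcripts of the gene is no measure of a deleted exon. From DN2 to DN3 1.86% of all genes were called higher and 2.22% lower in WT, and 1.39% and 2.93% in Arpp21-/-. In both genotypes 4 of the 6 DN3 markers rose (Ptcra, Notch3, Dtx1 and Cd3e) and 1 of the 8 DN2 markers fell (Cd44, edgeR quasi-likelihood test). The other DN2 markers were not called in WT, with log2 fold changes from -2.55 (Kit) to 1.82 (Mpzl2), and the median of the 8 was 0.07. DN2 markers summed to 2434 to 3179 CPM in the DN2 WT libraries and to 2879 and 418 CPM in the DN2 Arpp21-/- libraries, γδ T cell markers to 3336 to 3750 and to 3875 and 8435 CPM, and myeloid markers to 114 to 159 and to 134 and 357 CPM. The last value of each pair is replicate 2, far outside the WT range in all 3 lists. Most of its γδ sum was Tcrg-C1 (4907 CPM) and Tcrg-C2 (2286 CPM). Cd24a and Tcrg-C4 also lay above the WT libraries, while Trdc, Sox13 and Zbtb16 lay below them. Most of the myeloid sum of replicate 2 was Tyrobp (203 CPM) and Lyz2 (105 CPM), which with Fcer1g lay above the WT libraries. Csf1r and Itgam lay below the WT libraries, and S100a8 and S100a9 within their range. Of the DN2 markers Mpzl2 (40.3 CPM) lay above the WT libraries, and the others lay below them. What sets this library apart was not tested.

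The constant genes carried most of the locus signal and moved little with stage in WT. Trbc2 was at 947, 1117 and 1058 CPM in the DN2 WT and 1219, 1268 and 1203 CPM in the DN3 WT libraries. Trbc1 was at 708, 845 and 821 CPM in the DN2 WT and 638, 661 and 634 CPM in the DN3 WT libraries. The DN3 libraries were all higher for Trbc2 and all lower for Trbc1, but neither gene passed the edgeR test (log2 fold change 0.24 and -0.30, adjusted p = 0.993 and 0.829). The Trbc2 share of Trbc counts was 56.8 ± 0.462% (SD, n = 3) in the DN2 WT and 65.6 ± 0.143% (SD, n = 3) in the DN3 WT libraries. It was 63.4, 64.6 and 64.8% in the DN3 Arpp21-/- libraries, each below every DN3 WT library, and 55.1 and 74.3% in the DN2 Arpp21-/- libraries, the higher value in the library that stood apart.

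From DN2 to DN3 in WT nearly all functional Trbv segments rose. Of the 22 Trbv genes that passed the filter on low counts, 18 were called higher and none lower at an adjusted p under 0.05 (edgeR), where 4.08% of all 13780 genes tested were called, 1.86% higher and 2.22% lower. The median log2 fold change of these Trbv genes was 4.96, or 4.62 with Trbv20 and Trbv30, which were at 0 in all DN2 WT libraries, set to their lower bounds, against 0.01 over all genes. A gene that is high in DN3 alone passes the filter through that group, so the count describes the 22 genes tested and not all 35.

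**Figure D1:**
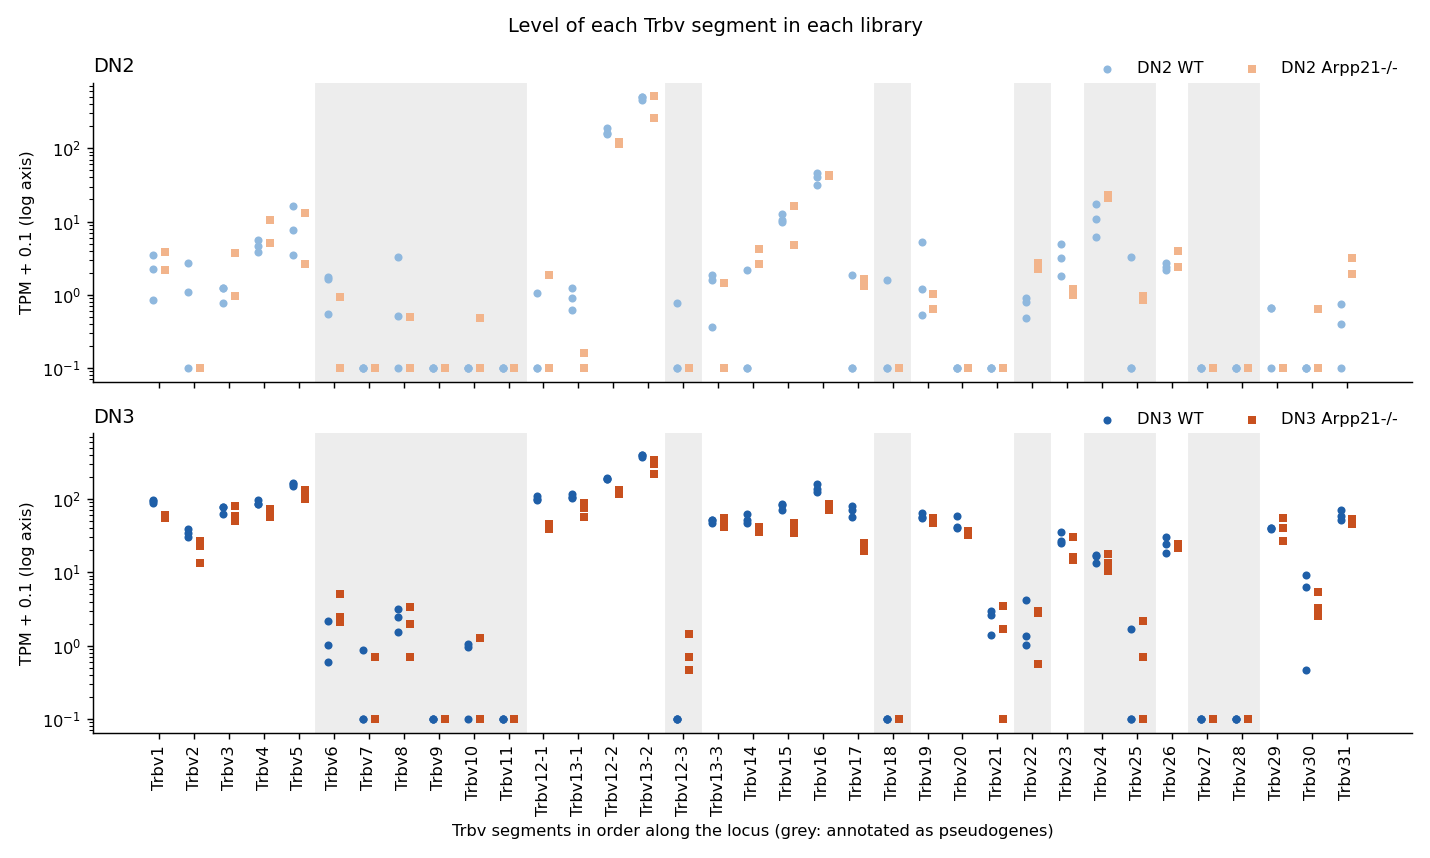
Each point is 1 library, with the level as TPM + 0.1 on a log axis for each Trbv segment in locus order, DN2 above and DN3 below, and grey bands mark annotated pseudogenes. In DN2 WT only Trbv12-2 and Trbv13-2 have means above 100 TPM, while in the DN3 WT Trbv5, Trbv16, Trbv13-1 and Trbv12-1 join them.

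Trbv12-2 and Trbv13-2 were the segments with high levels at both stages. Trbv13-2, known by the older name Tcrb-V8.2, was at 68.5, 77.1 and 73.3 CPM in the DN2 WT and 51.3, 50.8 and 50.98 CPM in the DN3 WT libraries. All DN3 libraries were lower, without passing the test (log2 fold change -0.52, SE 0.224, adjusted p = 0.343, edgeR). Trbv12-2 was at 28.3, 35.4 and 29.4 CPM in the DN2 WT and 30.03, 32.3 and 29.5 CPM in the DN3 WT libraries, which overlap. Together they took 85.8 ± 1.18% (SD, n = 3) of Trbv counts in the DN2 WT and 26.6 ± 0.792% (SD, n = 3) in the DN3 WT libraries. All other Trbv genes summed to 14.4, 20.2 and 17.4 CPM in the DN2 WT and 234, 221 and 221 CPM in the DN3 WT libraries, 13.02-fold higher in the mean.

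Their closest relatives were nearly silent at DN2. Trbv13-1 was at 0.0871, 0.136 and 0.192 CPM in the DN2 WT and 15.2, 16.4 and 17.2 CPM in the DN3 WT libraries (log2 fold change 6.81, SE 0.497, adjusted p = 0.000133, edgeR). Trbv12-1 was at 0.174, 0 and 0 CPM in the DN2 WT and 16.02, 16.8 and 17.6 CPM in the DN3 WT libraries (log2 fold change 8.08, SE 1.36, adjusted p = 0.00884, edgeR). Trbv13-3 was at 0.262, 0.227 and 0.0383 CPM in the DN2 WT and 6.71, 6.99 and 6.10 CPM in the DN3 WT libraries (log2 fold change 5.21, SE 1.03, adjusted p = 0.0194, edgeR). For these 3 genes no DN3 library overlapped a DN2 library.

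Segments at both ends of the locus rose as well. Trbv1, the most upstream segment, was at 0.435, 0.727 and 0.153 CPM in the DN2 WT and 17.7, 17.99 and 15.8 CPM in the DN3 WT libraries (log2 fold change 5.29, SE 0.724, adjusted p = 0.00317, edgeR). Trbv31, which joins by inversion, was at 0.0435, 0 and 0.115 CPM in the DN2 WT and 10.04, 9.46 and 11.9 CPM in the DN3 WT libraries (log2 fold change 7.43, SE 0.864, adjusted p = 0.00141, edgeR). Trbv20 had no count in any DN2 library and 164, 127 and 116 estimated counts in the DN3 WT libraries. Against a floor of 3 counts per library, averaged over the group, it was at least 47.2-fold higher in the DN3 WT.

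Trbv16 and Trbv15 were already present at DN2. Trbv16 was at 5.84, 9.04 and 7.59 CPM in the DN2 WT and 26.8, 21.8 and 23.1 CPM in the DN3 WT libraries (log2 fold change 1.67, SE 0.407, adjusted p = 0.0499, edgeR), close to the threshold. Trbv15 was at 1.74, 2.23 and 1.65 CPM in the DN2 WT and 12.6, 13.3 and 10.7 CPM in the DN3 WT libraries (log2 fold change 2.70, SE 0.386, adjusted p = 0.00385, edgeR). The other called Trbv genes were Trbv2, Trbv3, Trbv4, Trbv5, Trbv14, Trbv17, Trbv19, Trbv23, Trbv26 and Trbv29, with log2 fold changes from 2.98 (Trbv23) to 6.67 (Trbv17). Trbv30 was at 0 in the DN2 WT and 0.0456, 1.19 and 0.796 CPM in the DN3 WT libraries, at least 5.33-fold higher but not called (adjusted p = 0.101, edgeR). Trbv24, annotated as a pseudogene, was at 0.914, 2.68 and 1.65 CPM in the DN2 WT and 2.24, 1.88 and 2.30 CPM in the DN3 WT libraries, which overlap.

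The number of calls depended on single libraries. Of the 38 segments tested 23 were called, and 13 without DN2 WT replicate 3, 15 without DN3 WT replicate 1, 14 without DN3 WT replicate 2 and 13 without DN3 WT replicate 3. Over all genes the number called fell as well, from 562 to 322, 280, 257 and 243 in the same fits. Summed markers of other cells differed between the stages too. In WT the 7 myeloid markers summed to 114 to 159 CPM in DN2 and 29.9 to 36.8 CPM in DN3 (2 of 7 called, both lower, where 2.22% of all genes were called lower). The 6 markers of DP thymocytes summed to 126 to 151 and 404 to 501 CPM (none called). Most of this sum was Themis, at 476, 377 and 423 CPM in the DN3 WT libraries, where Cd4, Cd8a and Trac reached at most 1.68, 4.305 and 6.82 CPM. The 5 NK cell markers summed to 25.5 to 46.6 and 176 to 224 CPM, nearly all of it Gzma, which rose (log2 fold change 2.48, adjusted p = 0.0264, edgeR), while Ncr1, Klrk1 and Eomes reached at most 0.109 CPM and Klrb1c at most 2.91 CPM in any library. The 5 B cell markers summed to 38.6 to 49.6 and 61.2 to 66.04 CPM, nearly all of it Cd79b, which was not called (log2 fold change 0.58, adjusted p = 0.396, edgeR), while Pax5 stood at 0 in every library and Cd79a, Ms4a1 and Ebf1 at or below 1.23 CPM. Their part in the Trbv result was not tested, and in bulk RNA fewer cells of a type and less RNA per cell cannot be told apart.

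Per effective length, Trbv13-2 and Trbv12-2 stood first in the DN3 WT, at 388 ± 10.6 and 189 ± 4.30 TPM (SD, n = 3). Trbv5 (159 ± 9.35 TPM) and Trbv16 (140.4 ± 17.04 TPM) came next and did not differ beyond their spread. The place of Trbv5 is uncertain, since most of its 31-mers also occur in 5830405F06Rik. Trbv13-1 (109.5 ± 7.64 TPM), Trbv12-1 (102 ± 5.91 TPM) and Trbv1 (93.6 ± 4.68 TPM) followed, neighbours within their spread. Of the functional genes Trbv21 (2.25 ± 0.838 TPM) and Trbv30 (5.25 ± 4.45 TPM) were lowest.

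The members that failed the filter were 12 of the 13 Trbv pseudogenes, the functional Trbv21 and both Trbd segments. Trbv9, Trbv11, Trbv27 and Trbv28 had no count in any library. The other pseudogenes that failed reached at most 0.695 CPM, in Trbv22, and Trbv21 was at 0 in every DN2 library and reached 0.456 CPM at DN3. Between 19 and 23 Trbv segments had a count in DN2 libraries and between 27 and 29 in DN3 libraries.

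Trbj segments moved in both directions. In WT, 5 of 14 were called from DN2 to DN3, 3 higher and 2 lower, where 1.86% of all genes were called higher and 2.22% lower. Trbj1-1, the first J after Trbd1, was at 59.1, 67.8 and 69.4 CPM in the DN2 WT and 9.81, 8.05 and 7.74 CPM in the DN3 WT libraries (log2 fold change -2.94, SE 0.280, adjusted p = 0.000467, edgeR). Trbj1-2 was at 19.1, 18.8 and 20.7 CPM in the DN2 WT and 4.43, 4.99 and 5.79 CPM in the DN3 WT libraries (log2 fold change -1.94, SE 0.292, adjusted p = 0.00490, edgeR). Trbj2-1, the first J after Trbd2, was at 35.7, 32.3 and 30.3 CPM in the DN2 WT and 14.01, 9.89 and 12.4 CPM in the DN3 WT libraries (log2 fold change -1.44, SE 0.454, adjusted p = 0.139, edgeR). All 3 were lower in every DN3 library, and the first 2 passed the test.

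The 3 Trbj segments nearest Trbc2 were called higher. Trbj2-5 was at 0.653, 0.363 and 0.230 CPM in the DN2 WT and 2.42, 3.20 and 3.49 CPM in the DN3 WT libraries (log2 fold change 2.86, SE 0.550, adjusted p = 0.0167, edgeR). Trbj2-6, the pseudogene without the marked motif in the sequence above, was at 0.958, 2.41 and 1.65 CPM in the DN2 WT and 7.12, 7.25 and 8.58 CPM in the DN3 WT libraries (log2 fold change 2.19, SE 0.466, adjusted p = 0.0270, edgeR). Trbj2-7 was at 2.31, 2.95 and 2.11 CPM in the DN2 WT and 7.94, 9.97 and 10.5 CPM in the DN3 WT libraries (log2 fold change 1.94, SE 0.376, adjusted p = 0.0171, edgeR). These 3 calls depended on single libraries. Leaving out 1 of the 6 WT libraries at a time kept the log2 fold changes between 1.84 and 3.34, but the call was lost in 4 of 6 fits for Trbj2-5, 5 of 6 for Trbj2-6 and 4 of 6 for Trbj2-7, and with the replicate block Trbj2-5 was at the threshold (adjusted p = 0.050, edgeR). The counts do not show whether such reads came from a joined exon or from RNA that runs through the cluster.

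**Figure D2:**
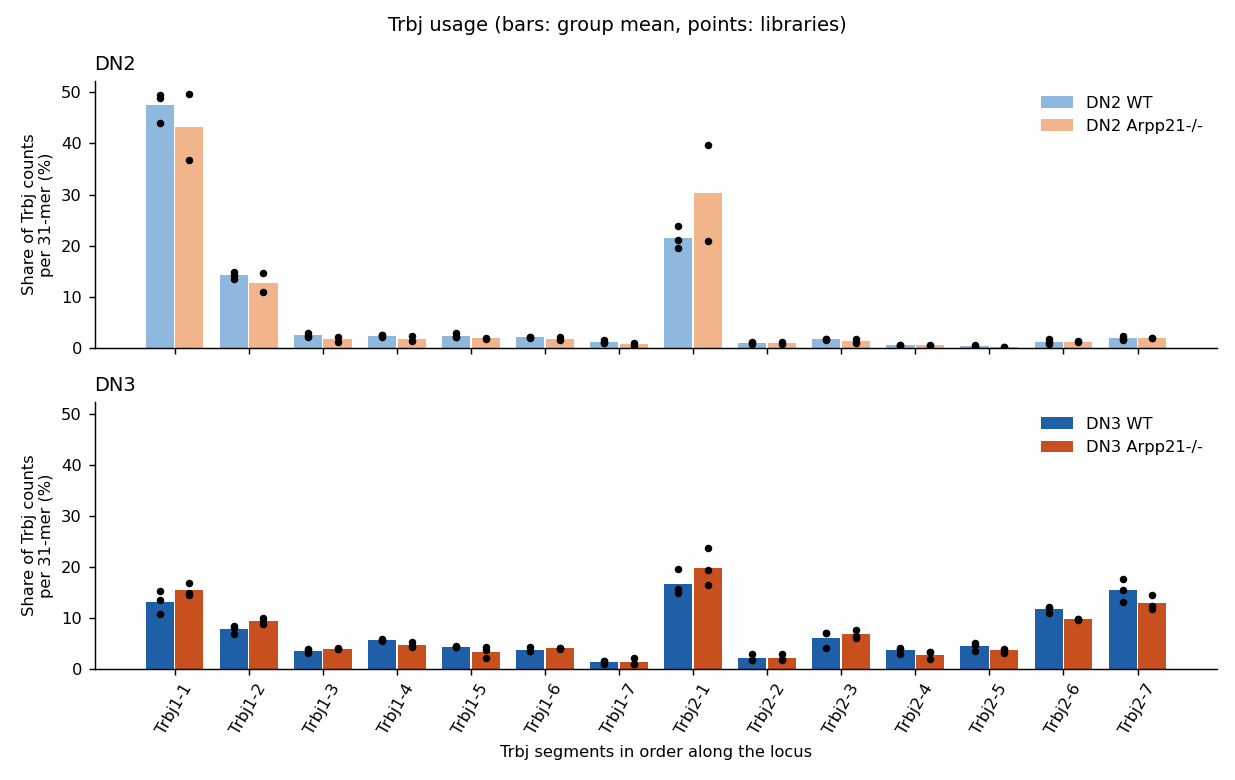
The share of Trbj counts per 31-mer, in percent, is plotted for the 14 Trbj segments in locus order, with bars for group means and points for libraries. Trbj1-1 stands highest in the DN2 WT at a mean of 47.5%, and in the DN3 WT the share is spread over Trbj2-1, Trbj2-7, Trbj1-1 and Trbj2-6.

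The effective lengths of these short transcripts varied widely between libraries, so counts per 31-mer were used to compare Trbj segments. Trbj1-1 took 47.5 ± 3.11% (SD, n = 3) of Trbj counts per 31-mer in the DN2 WT and 13.2 ± 2.20% (SD, n = 3) in the DN3 WT libraries. Trbj2-7 took 1.89 ± 0.339% (SD, n = 3) and 15.4 ± 2.34% (SD, n = 3). The Trbj2 cluster as a whole held 29.2 ± 2.13% (SD, n = 3) of Trbj counts in the DN2 WT and 59.1 ± 1.40% (SD, n = 3) in the DN3 WT libraries.

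In Arpp21-/- thymocytes 10 segments rose and 4 fell from DN2 to DN3. These are 14 of the 38 segments tested (edgeR), where 4.32% of all genes were called, 1.39% higher and 2.93% lower. Those called higher were Trbv1, Trbv2, Trbv3, Trbv13-1, Trbv19, Trbv20, Trbv23, Trbv29, Trbv31 and Trbj2-5, and those called lower Trbv13-2, Trbj1-1, Trbj1-2 and Trbj2-1. Trbj1-1 was at 82.9 and 123 CPM in the DN2 Arpp21-/- and 13.8, 10.5 and 15.5 CPM in the DN3 Arpp21-/- libraries (log2 fold change -2.96, SE 0.295, adjusted p = 0.000618, edgeR). Trbv13-2 was at 70.9 and 104 CPM in the DN2 Arpp21-/- and 42.9, 38.4 and 44.9 CPM in the DN3 Arpp21-/- libraries (log2 fold change -1.05, SE 0.247, adjusted p = 0.0420, edgeR). Trbv2, Trbv20 and Trbv29 had no count in either DN2 Arpp21-/- library and were at least 66.6-fold, 51.2-fold and 62.7-fold higher in the DN3 Arpp21-/-. The median log2 fold change of the 22 Trbv genes was 3.20, also with these 3 at their bounds, against 0.03 over all genes.

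The DN2 Arpp21-/- group consists of 2 unlike libraries. Without DN2 Arpp21-/- replicate 1, with the lone library assumed to vary like the other groups, 22 of 39 segments were called, where 46.1% of all genes were called. Without replicate 2, the library that stood apart, 16 of 39 were called, where 3.60% of all genes were. Without DN3 Arpp21-/- replicate 1, 2 or 3, 9, 8 and 9 segments were called, where 2.06%, 2.07% and 3.64% of all genes were. With the Arpp21-/- libraries fitted alone edgeR called no segment and no other gene, and 19 of 37 segments had an unadjusted p under 0.05, against 9.30% of all genes.

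**Figure D3:**
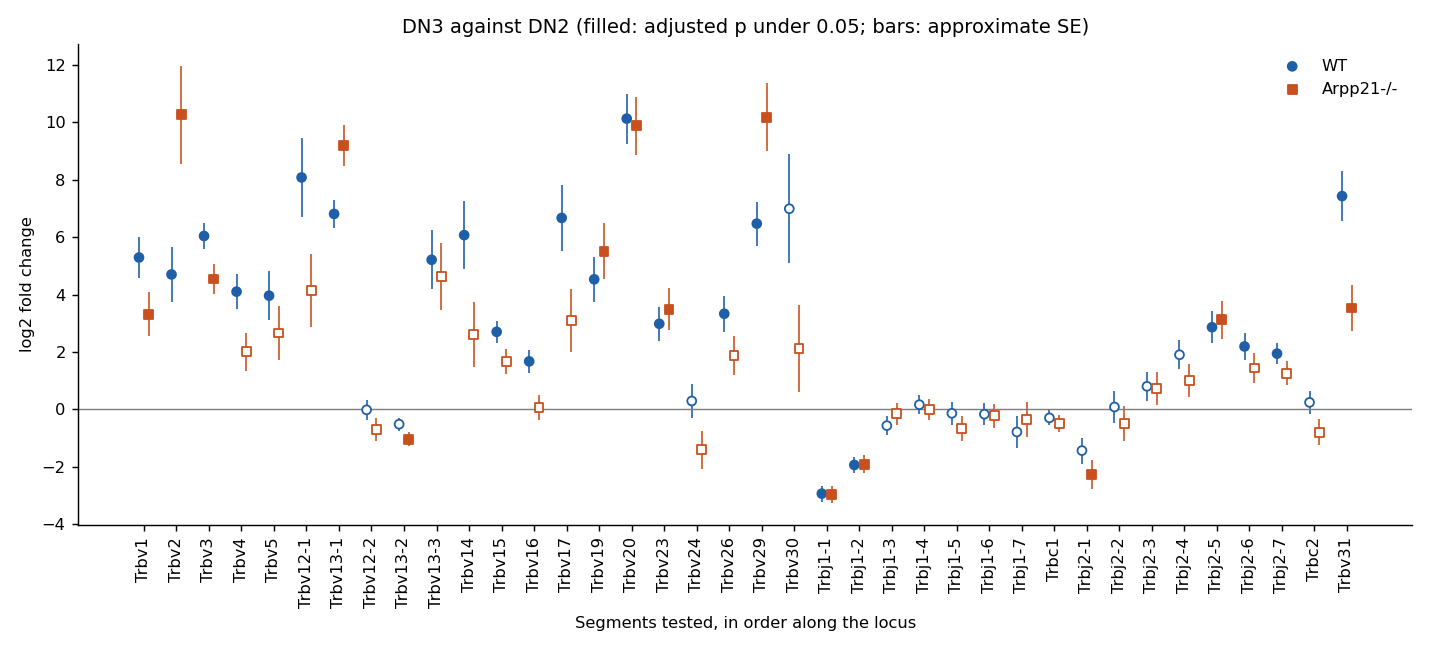
The log2 fold change of DN3 against DN2 is plotted with its approximate SE for the 38 segments tested, in locus order, for WT and Arpp21-/-, with filled symbols for segments called at an adjusted p under 0.05. Most Trbv segments lie well above 0, and Trbj1-1, Trbj1-2 and Trbj2-1 lie below it in both genotypes.

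The interaction of stage and genotype was called for no segment by edgeR or DESeq2, where 0% of all genes were called by edgeR, and 10 segments, all Trbv, had an unadjusted p under 0.05, against 2.71% of all genes. Without DN2 Arpp21-/- replicate 1, 11 of 39 segments were called in the interaction, where 25.0% of all genes were called. A difference in the stage change between the genotypes was not shown for any segment with all libraries.

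The comparison of Arpp21-/- with WT at DN3 asks whether loss of full-length Arpp21 changes Tcrb transcripts at the stage of V to DJ joining. No segment was called by edgeR or DESeq2, where 0.00726% of all genes were called by edgeR, and Trbj1-1 and Trbj1-2 had an unadjusted p under 0.05, 2 of 38 segments against 1.55% of all genes. The classes differed in direction. Of the 22 Trbv genes 15 had a log2 fold change below 0, against 50.4% of all genes, with a median of -0.29, while 13 of 14 Trbj segments were above 0, with a median of 0.34. In 7 Trbv genes (Trbv2, Trbv12-1, Trbv13-1, Trbv13-2, Trbv15, Trbv16 and Trbv17) every Arpp21-/- library lay below every WT library, where 5.57% of all genes did so, and in no Trbv gene did every one lie above. In 5 Trbj segments and both Trbc genes every Arpp21-/- library lay above, where 4.97% of all genes did so.

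**Figure D4:**
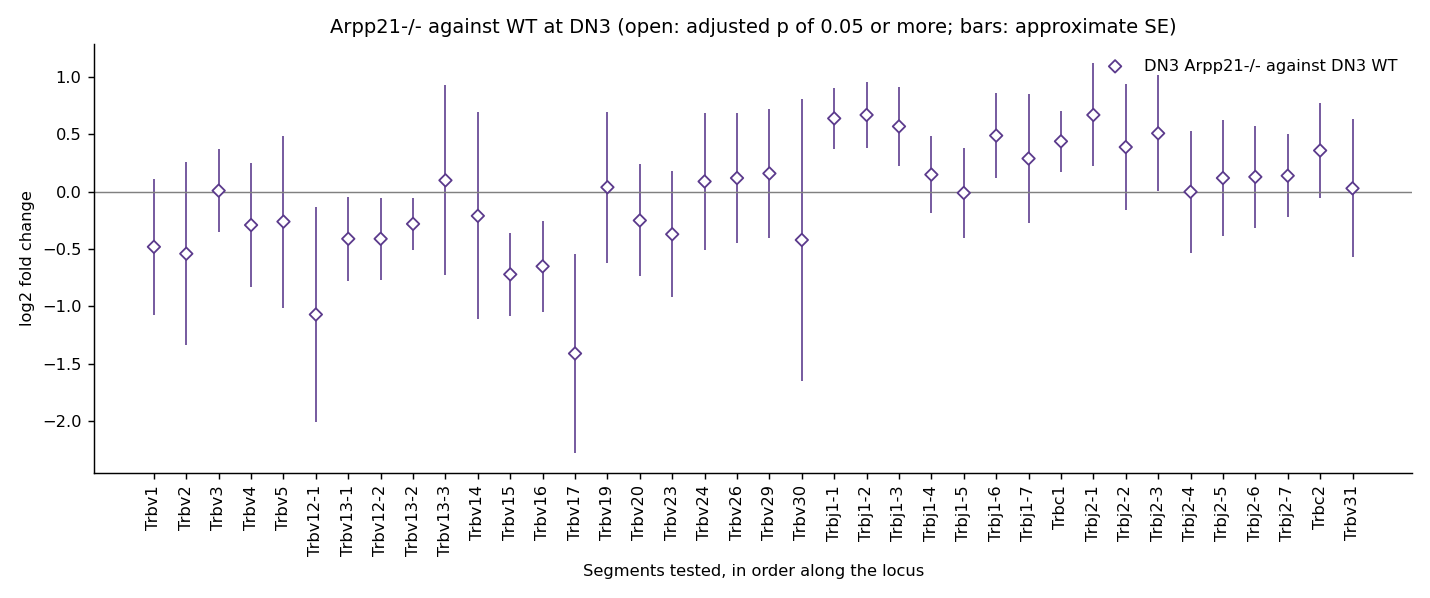
The log2 fold change of DN3 Arpp21-/- against DN3 WT is plotted with its approximate SE for the 38 segments tested, in locus order, and no adjusted p was under 0.05. Trbv17 and Trbv12-1 lie lowest, and 13 of 14 Trbj segments and both Trbc genes lie above 0.

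Trbv17 had the lowest value of the segments. It was at 12.3, 9.08 and 10.8 CPM in the DN3 WT and 2.88, 3.81 and 5.41 CPM in the DN3 Arpp21-/- libraries (log2 fold change -1.41, SE 0.868, adjusted p = 1.0, edgeR). Trbv12-1 was at 16.02, 16.8 and 17.6 CPM in the DN3 WT and 6.70, 7.35 and 9.92 CPM in the DN3 Arpp21-/- libraries (log2 fold change -1.07, SE 0.939, adjusted p = 1.0, edgeR). In both genes the genotypes did not overlap. In limma voom with sample quality weights these were the 2 of 38 segments called, where 0.856% of all genes were called, with log2 fold changes of -1.53 (Trbv17, adjusted p = 0.0204) and -1.23 (Trbv12-1, adjusted p = 0.0130), and over the other alternatives the adjusted p of both lay between 0.935 and 1.0.

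The study also followed Trbv13-2, Trbv15 and Trbv16 on genomic DNA, which is not analysed here. Trbv15 (older name Tcrb-V12) was at 12.6, 13.3 and 10.7 CPM in the DN3 WT and 5.03, 6.92 and 10.4 CPM in the DN3 Arpp21-/- libraries (log2 fold change -0.72, SE 0.363, adjusted p = 1.0, edgeR). Trbv16 (older name Tcrb-V11) was at 26.8, 21.8 and 23.1 CPM in the DN3 WT and 12.5, 14.1 and 19.3 CPM in the DN3 Arpp21-/- libraries (log2 fold change -0.65, SE 0.398, adjusted p = 1.0, edgeR). Trbv13-2 was at 51.3, 50.8 and 50.98 CPM in the DN3 WT and 42.9, 38.4 and 44.9 CPM in the DN3 Arpp21-/- libraries (log2 fold change -0.28, SE 0.224, adjusted p = 1.0, edgeR). All 3 were lower in every Arpp21-/- library, while Trbv3 overlapped, with 16.3, 16.96 and 12.7 CPM in the WT and 9.97, 16.7 and 19.7 CPM in the Arpp21-/- libraries.

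Trbj1-1 was at 9.81, 8.05 and 7.74 CPM in the DN3 WT and 13.8, 10.5 and 15.5 CPM in the DN3 Arpp21-/- libraries (log2 fold change 0.64, SE 0.263, adjusted p = 1.0, edgeR, unadjusted p = 0.0360). Trbj1-2 was at 4.43, 4.99 and 5.79 CPM in the DN3 WT and 7.22, 7.19 and 9.76 CPM in the DN3 Arpp21-/- libraries (log2 fold change 0.67, SE 0.285, adjusted p = 1.0, edgeR, unadjusted p = 0.0414). Both were higher in every Arpp21-/- library. The Trbj2 share of Trbj counts overlapped, with 58.1, 58.5 and 60.7% in the DN3 WT and 54.1, 57.4 and 59.3% in the DN3 Arpp21-/- libraries.

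A ratio within a library does not depend on the normalization between libraries. The ratio of summed Trbv to summed Trbc counts was 0.0672, 0.0676 and 0.0639 in the DN2 WT and 0.0515 and 0.0366 in the DN2 Arpp21-/- libraries. It was 0.170, 0.158 and 0.164 in the DN3 WT and 0.0966, 0.111 and 0.0925 in the DN3 Arpp21-/- libraries. At both stages the Arpp21-/- libraries lay below the WT libraries without overlap, 1.64-fold in the mean at DN3 and 1.503-fold at DN2, and in both genotypes the ratio was higher at DN3. The DN2 comparison rests on 2 libraries, of which replicate 2, the lower, stood apart, and replicate 1 lay below the WT libraries as well. In TPM the DN3 ratios were 0.407, 0.376 and 0.386 in the WT and 0.235, 0.271 and 0.227 in the Arpp21-/- libraries. These sums were not tested. The DN3 genotypes also differed without overlap in transcript length less effective length, a median over long transcripts. It was 149.9, 149.9 and 143.1 bases in the WT and 156.1, 157.6 and 163.5 bases in the Arpp21-/- libraries. Its part in the ratio was not tested.

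**Figure D5:**
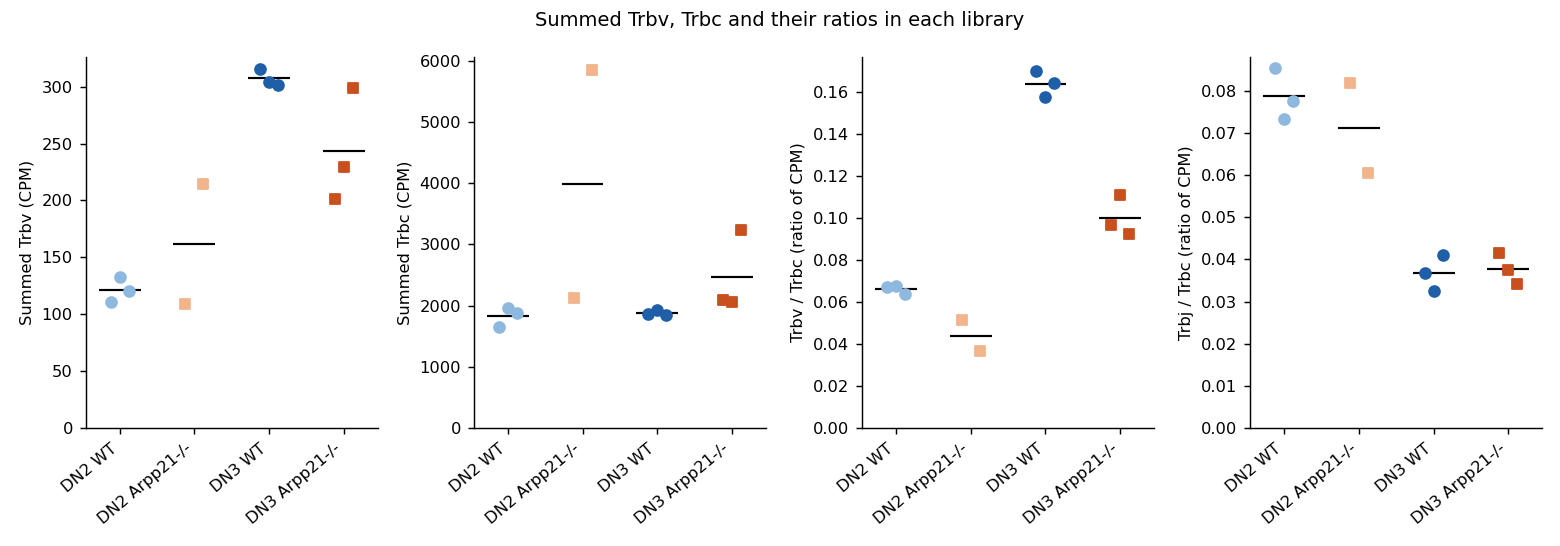
The 4 panels show summed Trbv and summed Trbc in CPM and the ratios of Trbv and of Trbj to Trbc, with a point for each library and a line at each group mean. The Trbv to Trbc ratio separates the 4 groups, with DN3 WT highest and DN2 Arpp21-/- lowest, while the Trbj to Trbc ratio separates the stages only.

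Both parts of the ratio differed at DN3. Summed Trbv was 316, 304 and 302 CPM in the DN3 WT and 202, 229 and 298 CPM in the DN3 Arpp21-/- libraries, all lower. Summed Trbc was 1856, 1929 and 1838 CPM in the DN3 WT and 2088, 2061 and 3228 CPM in the DN3 Arpp21-/- libraries, all higher. In TPM summed Trbv was 1.45-fold lower and summed Trbc 1.10-fold higher in the mean at DN3. At DN2 summed Trbv overlapped, with 111, 133 and 120 CPM in the WT and 109 and 214 CPM in the Arpp21-/- libraries. Summed Trbc was 1654, 1963 and 1879 CPM in the DN2 WT and 2124 and 5852 CPM in the DN2 Arpp21-/- libraries, all higher. In TPM too, summed Trbv overlapped at DN2 and summed Trbc was higher in every Arpp21-/- library.

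Markers of other cells were compared beside this result. At DN3 the 7 γδ T cell markers summed to 2515 to 2775 CPM in the WT and 1747 to 2372 CPM in the Arpp21-/- libraries, without overlap. Of these Tcrg-C2 and Tcrg-C4 were lower in every Arpp21-/- library, while Tcrg-C1, Trdc, Cd24a and Sox13 overlapped and Zbtb16 reached at most 0.129 CPM. The 6 markers of DP thymocytes, mostly Themis, summed to 404 to 501 and 276 to 452 CPM, which overlap. The 7 markers of cells after β selection summed to 855 to 942 and 527 to 1037 CPM, which overlap too. Of these Cd28 was higher and Cd27 lower in every Arpp21-/- library, and the others overlapped. The lowest sum was that of replicate 3, with Mki67 at 2.02 and Top2a at 45.1 CPM. The part of all these markers in the Trbv values was not tested.

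Dividing each segment by Trbc1 plus Trbc2 of its library, a scale chosen after seeing the data, put every DN3 Arpp21-/- library below every WT library in 15 of the 22 Trbv genes, where 19.0% of all genes were so, and no Trbj segment above, where 1.05% were so. Without the 2 libraries that stood apart the CPM of 16 Trbv genes lay below, where 10.9% of all genes did, and as a ratio to Trbc 16 Trbv genes lay below and 2 Trbj segments above, where 23.5% and 5.12% of all genes did. Per 1000 CPM of Trbc, Trbv12-2 was at 16.2, 16.8 and 16.1 in the DN3 WT and 9.01, 10.1 and 9.20 in the DN3 Arpp21-/- libraries. Trbv1 was at 9.54, 9.32 and 8.61 in the DN3 WT and 4.79, 5.28 and 5.00 in the DN3 Arpp21-/- libraries on this scale. Trbv26, Trbv29 and Trbv13-3 overlapped between the genotypes.

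The Trbj to Trbc ratio overlapped between the genotypes at both stages. It was 0.0854, 0.0734 and 0.0777 in the DN2 WT and 0.0818 and 0.0604 in the DN2 Arpp21-/- libraries. At DN3 it was 0.0368, 0.0325 and 0.0411 in the WT and 0.0416, 0.0374 and 0.0343 in the Arpp21-/- libraries. In both genotypes it was lower at DN3, without overlap.

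Trbv usage was far more even at DN3 than at DN2, while the genotypes overlapped. The Shannon index of the shares of Trbv counts, in natural log units, was 1.22 ± 0.0272 (SD, n = 3) in the DN2 WT, 2.83 ± 0.0118 (SD, n = 3) in the DN3 WT and 2.83 ± 0.0552 (SD, n = 3) in the DN3 Arpp21-/- libraries. The 5 most used segments took 47.9 ± 0.516% (SD, n = 3) of Trbv counts in the DN3 WT and 49.2 ± 2.93% (SD, n = 3) in the DN3 Arpp21-/- libraries. Single segments differed in share at DN3. Trbv17 took 3.89, 2.99 and 3.57% of Trbv counts in the DN3 WT and 1.43, 1.66 and 1.81% in the DN3 Arpp21-/- libraries. Trbv12-1 took 5.07, 5.54 and 5.82% in the WT and 3.32, 3.21 and 3.33% in the Arpp21-/- libraries, and Trbv16 took 8.48, 7.18 and 7.66% and 6.20, 6.15 and 6.46%. The shares of these 3 genes did not overlap between the genotypes, while that of Trbv31 did, with 3.18, 3.11 and 3.94% in the WT and 3.88, 4.11 and 4.97% in the Arpp21-/- libraries. That of Trbv15 was lower in every Arpp21-/- library as well. Other functional genes went the other way in share, and Trbv13-3, Trbv19, Trbv26 and Trbv29 had a higher share in every Arpp21-/- library. A share also depends on the other segments of its library. In CPM these 4 genes overlapped between the genotypes, with log2 fold changes of 0.10, 0.04, 0.12 and 0.16. The nearest shares of Trbv29 were 1.935% in the WT and 1.946% in the Arpp21-/- libraries. Trbv19 took 4.985, 5.425 and 5.83% in the WT and 7.394, 5.891 and 7.678% in the Arpp21-/- libraries.

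Position was described over the functional Trbv genes upstream of Trbd1. The Spearman rho of distance to Trbd1 with mean TPM was 0.61 in the DN3 WT and 0.57 in the DN3 Arpp21-/- over 21 genes, higher levels going with greater distance, and 0.31 and 0.29 in DN2. The rho of distance with the log2 fold change over 20 genes was -0.09 for DN3 against DN2 in WT and -0.26 for Arpp21-/- against WT at DN3. The points share the same libraries, and the values are descriptions. The genes include Trbv4 and Trbv5, whose levels are uncertain because of 31-mers shared with 5830405F06Rik. The mean position of Trbv usage, in kb from Trbv1, was 233, 231 and 237 in the DN3 WT and 238, 238 and 242 in the DN3 Arpp21-/- libraries. Without Trbv31 it was 218, 217 and 219.5 in the WT and 221, 219.7 and 219.7 in the Arpp21-/- libraries, so the genotypes lay closer together and the nearest libraries nearly met.

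At DN2 no segment was called between the genotypes by edgeR, where 0% of all genes were called, 12 segments had an unadjusted p under 0.05 against 14.7% of all genes, and DESeq2 called 1 segment and 38 genes in all. Without DN2 Arpp21-/- replicate 1, 18 of 39 segments were called, where 46.2% of all genes were called. In 4 Trbv genes, 6 Trbj segments and both Trbc genes both Arpp21-/- libraries lay above every WT library, where 7.52% of all genes did so. Trbv13-1 was the only Trbv gene with both Arpp21-/- libraries (0 and 0.0267 CPM) below every WT library (0.0871 to 0.192 CPM), where 8.28% of all genes were so. It had 0 and 1 estimated counts in the Arpp21-/- and 2, 3 and 5 in the WT libraries, near the floor. Trbj2-1 was at 38.8 and 148 CPM in the DN2 Arpp21-/- libraries, above the 30.3 to 35.7 CPM of DN2 WT, the higher value in the library that stood apart.

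Genes that act with the segments were read from lists. Of 15 genes of V(D)J recombination 2 were called higher from DN2 to DN3 in WT, where 1.86% of all genes were called higher, the recombinase subunits Rag1 (log2 fold change 6.54, adjusted p = 0.000316, edgeR) and Rag2 (log2 fold change 1.53, adjusted p = 0.00680, edgeR). Of 5 partners of the β chain 4 were called higher, Ptcra, which encodes the pre-T cell receptor α chain (log2 fold change 7.76), and the CD3 genes Cd3d (5.64), Cd3e (3.16) and Cd3g (2.33). Of 7 factors of the Tcrb enhancer and promoters, such as Runx1, Ets1 and Gata3, none was called, where 4.08% of all genes were called in either direction. Between the genotypes at DN3 no gene of the 3 lists was called by edgeR. Rag1 was at 904, 867 and 973 CPM in the DN3 WT and 413, 335 and 236 CPM in the DN3 Arpp21-/- libraries, without overlap (log2 fold change -1.48, SE 0.446, unadjusted p = 0.00767, adjusted p = 1.0, edgeR). Rag2 had a log2 fold change of 0.37 (SE 0.242) and Dntt, which adds bases at the joints, of 0.29 (SE 0.205). Both were higher in every DN3 Arpp21-/- library. Runx1 (log2 fold change -0.94, SE 0.644) and Cd3e (-0.19, SE 0.366) were lower in every DN3 Arpp21-/- library. Over all genes 4.97% lay above and 5.57% below in this way. The other genes of the 3 lists overlapped. Whether the level of Rag1 bears on that of the Trbv segments was not tested.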

How the data were processed

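DN2 and DN3 thymocytes, depleted of CD4- and CD8-positive cells and sorted, were sequenced from low-input poly(A) libraries (SmartSeq V4 with Nextera). The authors assigned trimmed paired reads to the Ensembl 101 transcripts of GRCm38 with kallisto 0.46. The deposited tables hold, per transcript, estimated counts (not normalized), TPM (counts per effective length, scaled to 1000000 per library) and effective lengths in bases. kallisto assigns a read pair to whole annotated transcripts by 31-mers, so a pair whose mates lie in different segments matches no single transcript, and how many such pairs there were is not recorded. The authors' differential expression tool was not given in the sources used here, and no strand setting was stated.

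Counts were summed per gene with GENCODE M21 and rounded for tests. Genes were filtered with filterByExpr (minimum count 10, minimum total count 15), which left 13780. Contrasts were tested, two-sided, with edgeR 4.0.16 in R 4.3.3 (quasi-likelihood F-test, TMM, all 4 groups in 1 fit) with Benjamini-Hochberg adjustment over all of these genes (threshold 0.05), in a script tested on simulated counts. The SE printed beside a fold change was derived from it and the F statistic, and is approximate. Shares of counts are given per library or as a group mean with the SD between libraries, and 1 count was worth 0.0267 to 0.0807 CPM. Older gene names came from RefSeq, and identities from alignment with Biopython 1.88. Sums, shares and ratios over segments were given per library without a test. Replicate numbers were not treated as pairs, since deviations from the group means correlated at 0.289, 0.0855 and 0.178 in WT and at 0.53 and -0.454 in Arpp21-/-.

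The members and lists were chosen with earlier results of these data known. Named are the Trbc and Trbd genes, the 5 highest Trbv and 3 highest Trbj of DN3 WT, a fixed set of segments (the ends of the locus, the Trbv12 and Trbv13 genes, Trbv2, Trbv15, Trbv16, Trbj1-1 and Trbj2-1), every segment called, and the 2 highest and 2 lowest fold changes per contrast. Trbv21, Trbv24 and the pseudogenes were named after their values were seen. Alternatives were DESeq2 1.42.0, DESeq2 size factors, other filters, limma 3.58.1 as a trend fit to log2 TPM with pseudocounts of 1 or 0.1, voom with sample quality weights, blocks, fits within 1 stage or genotype, and libraries left out.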

Additional observations from a re-analysis of the deposited data

How the results depend on the processing

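The number of segments called depended on the tool and the libraries more than the directions did. Between the genotypes at DN3 voom with sample quality weights called 2 segments and at DN2 DESeq2 called 1, against 0. Over all genes they called 118 and 38, against 1 and 0. For DN3 against DN2 in WT a filter of 10 CPM in 2 libraries gave 14 calls in place of 23, and in Arpp21-/- DESeq2 gave 23, voom 1 and the Arpp21-/- libraries alone 0 in place of 14. Over all genes these gave 383 calls in place of 562 in WT, and 1600, 140 and 0 in place of 595 in Arpp21-/-. With the replicate block 9 segments were called in Arpp21-/-, and with a genotype and replicate block 9 in WT and 3 in Arpp21-/-. Over all genes these blocks gave 414, 216 and 120 calls. The replicate numbers were not shown to pair the libraries. Leaving out 1 library gave 0 to 18 calls between the genotypes at DN2, 13 to 17 for the stage in WT, 8 to 22 for the stage in Arpp21-/- and 0 to 11 for the interaction. On the log2 scale, leaving out 1 library moved summed Trbv between the genotypes at DN2 from -0.15 to 0.82 and between stages in Arpp21-/- from 0.18 to 1.15, the Trbv to Trbc ratio in the same comparisons from -0.86 to -0.36 and from 0.96 to 1.45, and the Trbj to Trbc ratio at DN2 from -0.38 to 0.05. In TPM summed Trbv between the genotypes at DN2 was -0.29, the Trbv to Trbc ratio between stages in WT was 1.17, and the Trbj to Trbc ratio was 0.37 between the genotypes at DN2, -0.85 between stages in WT and -1.28 in Arpp21-/-. In TPM the difference in the Trbj2 share turned to 1.11 percentage points between the genotypes at DN3 and was 15.7 between stages in WT and 4.47 in Arpp21-/-, the Shannon index differed by 1.65 and the share of the 5 most used segments by -44.4 percentage points between stages in WT. The cause of these moves was not tested. In analyses added after seeing the data, Trbv genes with all DN3 Arpp21-/- libraries below WT numbered 15 as a ratio to Trbc and 16 without the 2 libraries that stood apart, on either scale, and Trbj segments above WT numbered 0 as a ratio and 2 as a ratio without those libraries. With Trbv counts of 2552 to 8012 per library, levels of a few counts at DN2 were not resolved.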
